A study of Mus musculus with 6 samples.

Results

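Transcripts of 10 inflammatory genes were compared between Gli1+ and Gli1- cells of postnatal mouse cartilage. The genes were Lcn2, Cd14, Saa3, Il6, Cxcl1, Cxcl5, Cxcl12, Ccl2, Ccl7 and Nfkbia, chosen by name as secreted proteins, chemokines and signalling proteins that respond to NF-κB. They are 10 of the 54532 genes in the count table, and all 10 were among the 14801 genes that had enough counts to be tested. The study asked how the RNA of cells marked by Gli1, a target gene and effector of Hedgehog signalling, differs from that of the other cells in the cartilage of the same animals. All mice were Gli1-CreERT2; tdTomato (the Ai9 reporter) on a C57BL/6 background, 1 month old, and taken 24 h after tamoxifen (TAM). CreERT2 is driven from Gli1, and TAM lets it switch on the red protein tdTomato, so both populations carried the same alleles and had the same TAM, and they differed in tdTomato. CD45-CD31-Ter119- cells were sorted into tdTomato+ (Gli1+) and tdTomato- (Gli1-), with 3 libraries of poly-A RNA from each. The label thus depends on recombination under TAM in each cell, and whether a library pools several mice is not stated. The labels name the tissue growth plate, whereas the study's text names costal cartilage for these libraries. Costal cartilage was digested overnight with collagenase before the sort.

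NF-κB is a family of transcription factors that inhibitors such as IκBα hold in the cytoplasm. When Toll-like, IL-1 or TNF receptors are engaged, IκBα is degraded and NF-κB enters the nucleus, where it switches on cytokine and chemokine genes and also the gene of IκBα itself, which closes the loop. In cartilage, chondrocytes are known to answer IL-1, bacterial products and matrix fragments in this way, with chemokines, IL-6, lipocalin-2 and matrix-degrading enzymes among the products.

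The DNA ahead of the genes was searched for the κB motif, the short word that NF-κB dimers are known to bind. Windows at RefSeq (GRCm38.p6) start sites were searched for 6 of the 10 genes, namely Cxcl1, Cxcl12, Il6, Lcn2, Nfkbia and Saa3. Cd14, Cxcl5, Ccl2 and Ccl7 were left out of the search, so the counts of matches do not cover them. In the window from 250 bases before to 50 bases after the start site, the κB consensus, searched on both strands, was found for Cxcl1, Il6 and Nfkbia, 3 of the 6, and in 8.46% of 32851 promoter windows of the same length. The last 100 bases before the start site are given for these 3 genes, 5′ to 3′ on the strand of the gene, with the bases that match in capitals. The windows are chr5:90891145-90891244 (plus strand) for Cxcl1, chr5:30013014-30013113 (plus strand) for Il6 and chr12:55492648-55492747 (minus strand) for Nfkbia.
Cxcl1: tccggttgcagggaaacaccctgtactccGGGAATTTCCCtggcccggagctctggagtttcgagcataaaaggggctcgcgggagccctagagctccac
Il6: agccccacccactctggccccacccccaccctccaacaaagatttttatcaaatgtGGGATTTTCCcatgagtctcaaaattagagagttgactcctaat
Nfkbia: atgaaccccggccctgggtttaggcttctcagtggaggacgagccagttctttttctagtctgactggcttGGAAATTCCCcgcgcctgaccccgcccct
Counted from the start site, the match began at -71 in Cxcl1, at -44 in Il6 and at -29 in Nfkbia. Of these 3 genes, Il6 and Nfkbia were lower in every Gli1+ library than in the Gli1- library of the same number and Cxcl1 was not, as described further on. In Cxcl1 a match on each strand overlapped, and the capitals cover both. No consensus match was found in the windows of Lcn2, Cxcl12 and Saa3. The more open pattern GGGNNNNNCC, of which the consensus is a stricter form, occurred in 5 of the 6 windows and in 50.8% of all promoter windows. The RefSeq start site of Lcn2 lies 513 bases inside the gene as the count table draws it, so its window is not the region ahead of the table's gene. A match is a string of letters and no measurement of binding was made here.

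Totals lay between 17114101 and 18602482 counts per library. Gli1 had 86, 104 and 152 counts in the Gli1+ libraries and 14, 19 and 46 in the Gli1- libraries, in the direction of the labels. A pair of libraries stood apart. Gli1+ replicate 1 had counts on 15000 genes against 20666 to 23360 in the other 5. Gli1- replicate 1 carried blood-cell transcripts despite the CD45 gate. Its 14 neutrophil markers summed to 3660 CPM against 10.2 to 79.2 in the other 5 libraries, its 14 macrophage and monocyte markers to 813 against 26.2 to 163, and its 8 markers of all leukocytes to 988 against 9.31 to 44.8. The neutrophil marker Ly6g had 198 counts there and 0 or 1 elsewhere. Both libraries of pair 1 are therefore set apart in what follows. The cartilage collagens Col2a1 and Col9a2 had at least 2130 and 476 CPM in every library, and 14 chondrocyte markers together 8130 to 36800 CPM. Summed fibroblast markers ranged from 1840 to 4220 CPM in Gli1+ and from 2290 to 10300 CPM in Gli1- libraries. Of 12 fibroblast markers 11 had a log2FC under 0, with a median of -1.27, which was 0.04 without Gli1- replicate 2. The part of fibroblasts in the values of the 10 genes was not tested. Lymphocyte, erythroid, endothelial and skeletal muscle markers stayed at or under 39.5 CPM in each library. Values are CPM (counts scaled to a common library total) adjusted by trimmed mean of M values (TMM). A gene was called at |log2FC| over 1 and Benjamini-Hochberg adjusted p under 0.05 in edgeR's quasi-likelihood test. log2FC is Gli1+ minus Gli1-, and ± is the SD over 3 libraries.

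None of the 10 genes was called, as none of the 14801 genes tested was (0%), with a smallest adjusted p of 0.9999 in edgeR. The study's text does report differentially expressed genes between the populations at the same cut-offs, from a test that its methods do not name. At an unadjusted p under 0.05, edgeR found 302 genes (2.04%) lower and 212 (1.43%) higher in Gli1+ cells, 514 in all (3.47%), and none of the 10. Replicates of 1 population differed several-fold for most of the 10, and the biological coefficient of variation over all genes was 0.662. The log2FC was under 0 for 8 of the 10 genes, against 49.9% of all genes. The median was -0.67 for the 10 genes and 0.0013 for all genes tested. Without Gli1- replicate 1 the median of the 10 was -0.10. In bulk RNA, fewer cells that express a gene and less of its RNA per cell cannot be told apart.

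**Figure D1:**
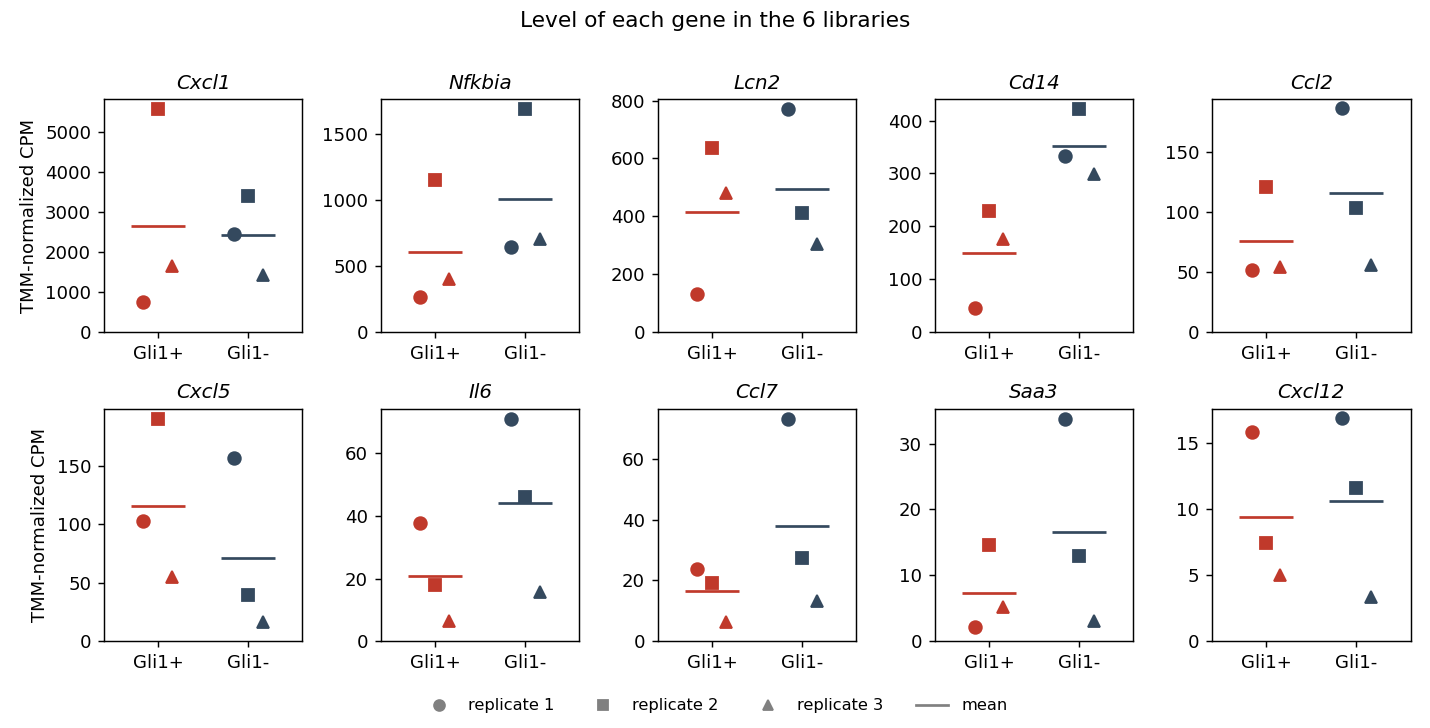
TMM-normalized CPM (linear axis from 0) of the 10 genes in the 3 Gli1+ and 3 Gli1- libraries, with symbols for replicate numbers and a line for the mean. The 3 Gli1+ libraries all sit below the 3 Gli1- libraries for Cd14, and the populations overlap for the other 9 genes.

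Cd14 (ENSMUSG00000051439, chr18:36725074-36726736, minus strand, mm10) is the co-receptor that hands bacterial lipopolysaccharide to the Toll-like receptor TLR4. It was the gene whose populations did not overlap. Cd14 had 46.3, 229 and 175 CPM in Gli1+ replicates 1, 2 and 3, and 332, 421 and 299 CPM in Gli1- replicates 1, 2 and 3. Every Gli1+ library lay below every Gli1- library, which held for 4.45% of all genes tested. The means were 150 ± 93.9 CPM (n = 3) and 351 ± 63.2 CPM (n = 3), a log2FC of -1.22 (SE 0.60). In edgeR its unadjusted p was 0.0744 and its adjusted p 0.9999, and an exact 2-sided permutation test gave p = 0.1, the smallest that 3 against 3 libraries allow. Without Gli1- replicate 1, the library with blood-cell transcripts, its log2FC was -1.26. Leaving out Gli1+ replicate 1 or 2 instead gave -0.82 and -1.67. Monocytes also carry Cd14, and the macrophage and monocyte marker Adgre1 had 0 to 5 counts in the 5 libraries other than Gli1- replicate 1, where it had 588. The 14 macrophage and monocyte markers summed to 26.2, 111 and 35.0 CPM in Gli1+ replicates 1, 2 and 3. In Gli1- replicates 1, 2 and 3 they summed to 813, 163 and 45.7 CPM, above the same-numbered Gli1+ library each time. Their part in the Cd14 values was not tested. Cd68, which many cells with lysosomes express, ranged from 15.2 to 101 CPM in Gli1+ and from 42.4 to 155 CPM in Gli1- libraries. Tlr4 itself had 23.1, 20 and 11 CPM in Gli1+ replicates 1, 2 and 3 against 39.8, 38.6 and 38.0 CPM in Gli1- replicates 1, 2 and 3. Its populations did not overlap either, with a log2FC of -1.10 (SE 0.42) and an unadjusted p of 0.0295 in edgeR, adjusted p 0.9999.

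Nfkbia (ENSMUSG00000021025, chr12:55489410-55492647, minus strand, mm10) encodes IκBα, the inhibitor that is also an NF-κB target. Nfkbia had 268, 1150 and 403 CPM in Gli1+ replicates 1, 2 and 3 and 640, 1690 and 708 CPM in Gli1- replicates 1, 2 and 3. Replicate 2 was the highest in both populations, and the populations overlapped. The means were 608 ± 477 and 1010 ± 585 CPM (n = 3 each), a log2FC of -0.73 (SE 0.69), with an unadjusted p of 0.318 in edgeR. Transcripts that cell dissociation is known to induce, immediate-early and heat-shock genes, moved with this gene. Their 14 genes summed to 2250, 18100 and 7120 CPM in Gli1+ replicates 1, 2 and 3 and to 12600, 36400 and 18600 CPM in Gli1- replicates 1, 2 and 3. Replicate 2 was again the highest in both populations and Gli1+ replicate 1 the lowest of all. The log2FC was under 0 for 13 of these 14 genes, with a median of -1.19. All 14 had counts in every library. Their part in the Nfkbia values was not tested.

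Lcn2 (ENSMUSG00000026822, chr2:32384633-32388252, minus strand, mm10) encodes lipocalin-2, a secreted protein that binds bacterial siderophores and that neutrophils also store in granules. Lcn2 had 131, 636 and 479 CPM in Gli1+ replicates 1, 2 and 3 and 772, 411 and 305 CPM in Gli1- replicates 1, 2 and 3. The highest value was in the library with neutrophil transcripts and the lowest in Gli1+ replicate 1, so the pair numbered 1 went one way and the other pairs the other. The means were 415 ± 259 and 496 ± 245 CPM (n = 3 each), a log2FC of -0.26 (SE 0.66), with an unadjusted p of 0.706 in edgeR and p = 0.7 in the exact permutation test. The log2FC turned to 0.21 without Gli1- replicate 1, to 0.14 without Gli1+ replicate 1 and to 0.63 without both. Gli1+ replicate 2, the next highest for Lcn2 at 636 CPM, had 0.0614 CPM of Ly6g and a neutrophil marker sum of 79.2 CPM, the highest of the 5 libraries other than Gli1- replicate 1. The part of neutrophils in the Lcn2 values was not tested.

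Saa3 (ENSMUSG00000040026, chr7:46711998-46715700, minus strand, mm10), an acute-phase apolipoprotein made at sites of inflammation, followed the same libraries at a lower level. Saa3 had 2.22, 14.6 and 5.20 CPM in Gli1+ replicates 1, 2 and 3 and 33.7, 12.9 and 3.07 CPM in Gli1- replicates 1, 2 and 3. The means were 7.35 ± 6.47 and 16.6 ± 15.7 CPM (n = 3 each), a log2FC of -1.17 (SE 0.95), with an unadjusted p of 0.25 in edgeR. Without Gli1- replicate 1 the log2FC was -0.12, and without both libraries of pair 1 it was 0.31. Saa3 shares 1.54% of its stretches of 75 bases with other genes, so a small part of its reads may belong elsewhere.

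Il6 (ENSMUSG00000025746, chr5:30013114-30019981, plus strand, mm10) encodes interleukin-6, which signals through IL6RA and the shared subunit gp130 (Il6st). Il6 had 37.8, 17.9 and 6.56 CPM in Gli1+ replicates 1, 2 and 3 and 71.0, 45.9 and 15.8 CPM in Gli1- replicates 1, 2 and 3. Each Gli1+ library was below the Gli1- library of the same number, by log2 ratios of -0.91, -1.36 and -1.26 in pairs 1, 2 and 3, while the populations overlapped. The means were 20.8 ± 15.8 and 44.2 ± 27.6 CPM (n = 3 each), a log2FC of -1.09 (SE 0.74), with an unadjusted p of 0.178 in edgeR and p = 0.3 in the exact permutation test. With the replicate number as a block, edgeR gave a log2FC of -1.17 (SE 0.27), an unadjusted p of 0.00599 and an adjusted p of 0.381. DESeq2's Wald test with the same block called Il6, with a log2FC of -1.19 (SE 0.35) and an adjusted p of 0.0278. That fit called 313 genes (2.11%) lower and 115 higher, and Il6 was its 1 call among the 10. The call of Il6 held without pair 1 (adjusted p = 0.00039 in DESeq2). It was lost without pair 2 (0.613) and without pair 3 (0.583), where the log2FC was still -1.10 (SE 0.59) and -1.12 (SE 0.58). The DESeq2 fit without pair 1, chosen after seeing the data, called 781 of 15331 genes, with Cxcl5 among those higher in Gli1+ cells. That fit gave adjusted p-values of 0.00275 for Cd14 (log2FC -0.83), 0.0202 for Nfkbia (-0.69) and 0.0371 for Lcn2 (0.63). The receptor chain Il6st had means of 684 ± 559 and 473 ± 192 CPM in these populations, with an unadjusted p of 0.46 in edgeR.

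Among the CXC chemokines, Cxcl1 (ENSMUSG00000029380, chr5:90891241-90893115, plus strand, mm10) and Cxcl5 (ENSMUSG00000029371, chr5:90759360-90761624, plus strand, mm10) are ligands of CXCR2 that draw neutrophils. Cxcl1 had 742, 5570 and 1660 CPM in Gli1+ replicates 1, 2 and 3 and 2440, 3400 and 1430 CPM in Gli1- replicates 1, 2 and 3. Gli1+ libraries held both the highest and the lowest value, and the populations overlapped throughout. The means were 2660 ± 2570 and 2420 ± 986 CPM (n = 3 each), a log2FC of 0.13 (SE 0.78), with an unadjusted p of 0.869 in edgeR. Without Gli1+ replicate 2 the log2FC was -1.02. Cxcl1 took from 0.0772% to 0.498% of all counts of a library and ranked 31 of the 14801 genes tested by mean CPM.

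Cxcl5 was the gene with the highest log2FC of the 10. Cxcl5 had 103, 190 and 55.0 CPM in Gli1+ replicates 1, 2 and 3 and 157, 39.3 and 16.6 CPM in Gli1- replicates 1, 2 and 3. The populations overlapped through Gli1- replicate 1, the library with neutrophil transcripts. The means were 116 ± 68.5 and 71.0 ± 75.5 CPM (n = 3 each), a log2FC of 0.71 (SE 0.82), with an unadjusted p of 0.413 in edgeR. Without Gli1- replicate 1 the log2FC was 2.05 (unadjusted p = 0.0256 in edgeR, adjusted p 1.0). DESeq2 with the block did not call Cxcl5 over the 3 pairs (adjusted p = 0.335). Once pair 1 was left out, it called Cxcl5 higher in Gli1+ cells (log2FC 1.998, SE 0.26, adjusted p = 2.08e-12). That fit was chosen after seeing the data, rests on pairs 2 and 3 alone and called 781 of 15331 genes. Without pair 1 and with no block, edgeR called no gene and gave Cxcl5 a log2FC of 2.13 (SE 0.80, unadjusted p = 0.0422). Cxcl3, another CXCR2 ligand, had 94.8, 1230 and 246 CPM in Gli1+ replicates 1, 2 and 3 and 98.8, 155 and 37.5 CPM in Gli1- replicates 1, 2 and 3. Its log2FC was 2.43 (SE 0.97), with an unadjusted p of 0.0359 in edgeR and an adjusted p of 0.9999. The receptor gene Cxcr2 had at most 3.39 CPM outside Gli1- replicate 1, which had 122 CPM.

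Cxcl12 (ENSMUSG00000061353, chr6:117168535-117181367, plus strand, mm10) is the ligand of CXCR4 that keeps blood stem cells in the marrow and that reticular stromal cells make in abundance. Cxcl12 had 15.8, 7.43 and 4.99 CPM in Gli1+ replicates 1, 2 and 3 and 16.9, 11.6 and 3.33 CPM in Gli1- replicates 1, 2 and 3. In both populations replicate 1 was the highest and replicate 3 the lowest, and the populations overlapped over nearly their whole range. The means were 9.40 ± 5.65 and 10.6 ± 6.82 CPM (n = 3 each), a log2FC of -0.17 (SE 0.71), with an unadjusted p of 0.813 in edgeR. The log2FC was 0.32 without Gli1- replicate 1. Of 8 other genes that mark Cxcl12-abundant reticular cells, such as Ebf1 and Foxc1, 7 were tested and all 7 had a log2FC under 0, with a median of -0.72. They summed to 157 to 246 CPM in Gli1+ and 241 to 389 CPM in Gli1- libraries, and Adipoq was at 0 in at least 1 library. Their part in the Cxcl12 values was not tested.

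Ccl2 (ENSMUSG00000035385, chr11:82035571-82037453, plus strand, mm10) and Ccl7 (ENSMUSG00000035373, chr11:82045712-82047525, plus strand, mm10), which lie close together, encode monocyte attractants that share the receptor CCR2. Ccl2 had 51.4, 121 and 54.5 CPM in Gli1+ replicates 1, 2 and 3 and 187, 103 and 56.1 CPM in Gli1- replicates 1, 2 and 3. Outside Gli1- replicate 1 the populations ran through the same range, and the log2FC was -0.61 (SE 0.57, unadjusted p = 0.312 in edgeR) over all libraries and -0.08 without that one. The means of Ccl2 were 75.7 ± 39.5 and 116 ± 66.4 CPM (n = 3 each). Ccl7 had 23.7, 19.2 and 6.46 CPM in Gli1+ replicates 1, 2 and 3 and 73.1, 27.3 and 13.3 CPM in Gli1- replicates 1, 2 and 3. Each Gli1+ library was below its partner, with log2 ratios of -1.63, -0.51 and -1.04. The means of Ccl7 were 16.4 ± 8.92 and 37.9 ± 31.3 CPM (n = 3 each), a log2FC of -1.21 (SE 0.72, unadjusted p = 0.134 in edgeR), which was -0.31 without Gli1- replicate 1. Ccr2, the receptor, had 0 counts in 5 libraries and 0.517 CPM in Gli1- replicate 1. An opposite-strand gene, Gm17268, overlaps Ccl2 and had 0 counts in every library.

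According to the study's text the Gli1+ and Gli1- cells were taken from the same animals, though no replicate number is tied to an animal, and the ratios within same-numbered pairs were set side by side. In pair 1 all 10 genes were lower in the Gli1+ library, against 55.0% of all genes. In pair 2 the lower genes were 5 of 10, against 47.8% of all genes, and in pair 3 they were again 5 of 10, against 49.1%. Cd14, Il6, Ccl7 and Nfkbia, 4 of the 10, were lower in Gli1+ in all 3 pairs, against 19.8% of all genes. The summed dissociation-induced transcripts given beside Nfkbia were also lower in the Gli1+ library in all 3 pairs, and their part in the values of Cd14, Il6, Ccl7 and Nfkbia was not tested. Because all 10 were lower in pair 1, these 4 were set by pairs 2 and 3 alone. Lower in both pairs 2 and 3 were thus 4 of the 10, against 32.0% of all genes. Lcn2, Saa3, Cxcl1 and Cxcl5 were lower in pair 1 and higher in pairs 2 and 3. With the replicate block in edgeR, the 4 that were lower in every pair had an unadjusted p under 0.05, against 5.25% of all genes with such a p and a log2FC under 0. That fit tests the same pair differences by which these 4 were picked, so its p-values are no separate support. In blocked edgeR the log2FC was -1.47 (SE 0.50, unadjusted p = 0.0283) for Cd14, -1.06 (SE 0.33, unadjusted p = 0.0214) for Ccl7 and -0.87 (SE 0.27, unadjusted p = 0.0215) for Nfkbia, and no adjusted p of the 10 was below 0.381. The smallest adjusted p of any gene there was 0.307. In DESeq2 with the block, Cd14 had an adjusted p of 0.0519, Nfkbia of 0.11 and Ccl7 of 0.14.

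**Figure D2:**
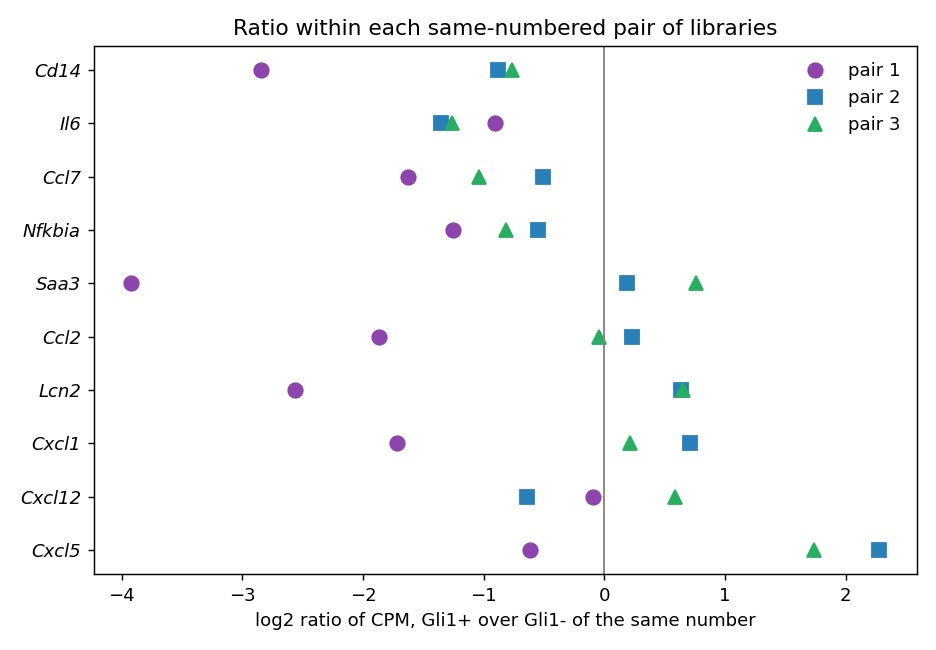
log2 ratio of CPM, Gli1+ over the Gli1- library of the same number, for each gene (rows) and pair (symbols). Cd14, Il6, Ccl7 and Nfkbia lie left of 0 in all 3 pairs, and Saa3, Lcn2, Cxcl1 and Cxcl5 lie left of 0 in pair 1 and right of 0 in pairs 2 and 3.

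**Figure D3:**
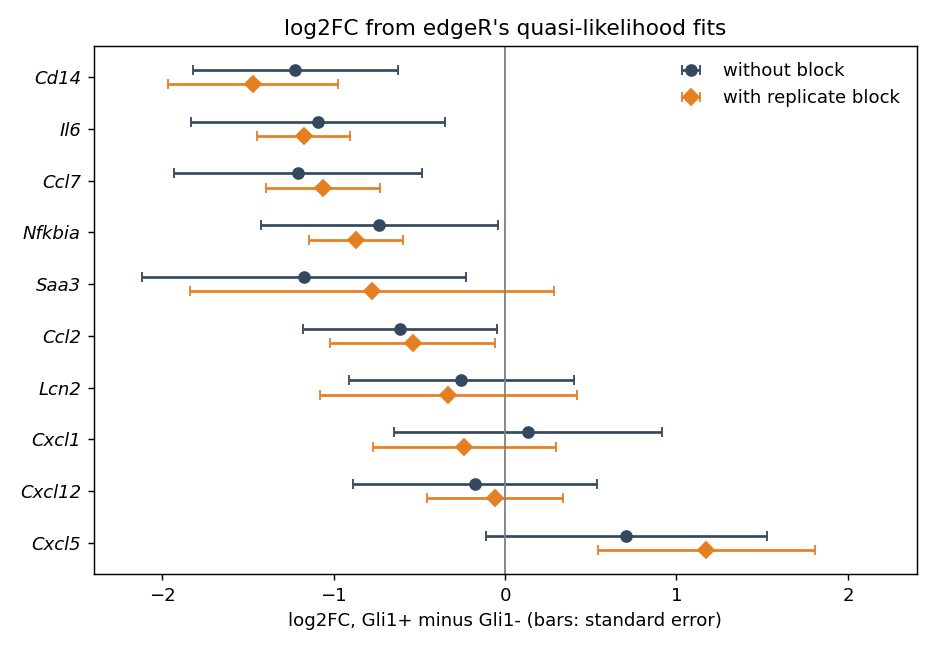
log2FC (Gli1+ minus Gli1-) of the 10 genes from edgeR without and with the replicate number as a block, with bars of 1 standard error. The block narrows the bars of Il6 from 0.74 to 0.27 and of Nfkbia from 0.69 to 0.27. It widens those of Lcn2 from 0.66 to 0.75 and of Saa3 from 0.95 to 1.06. The sign of Cxcl1 differs between the fits.

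The 10 genes peaked in 3 different libraries. Gli1- replicate 1 was the highest library for Lcn2, Saa3, Il6, Cxcl12, Ccl2 and Ccl7. Gli1+ replicate 2 was the highest for Cxcl1 and Cxcl5, and Gli1- replicate 2 for Cd14 and Nfkbia. Lcn2, Cd14, Saa3, Cxcl1, Ccl2 and Nfkbia were lowest in Gli1+ replicate 1, which had counts on the fewest genes (15000). The shares of all genes that peaked or were lowest in these libraries were not counted. These peaks and lows are therefore not shown to be particular to the 10 genes. The genes that peaked in Gli1- replicate 1 did so in the library with the highest sums of neutrophil and macrophage markers. The part of blood cells in these peaks was not tested.

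**Figure D4:**
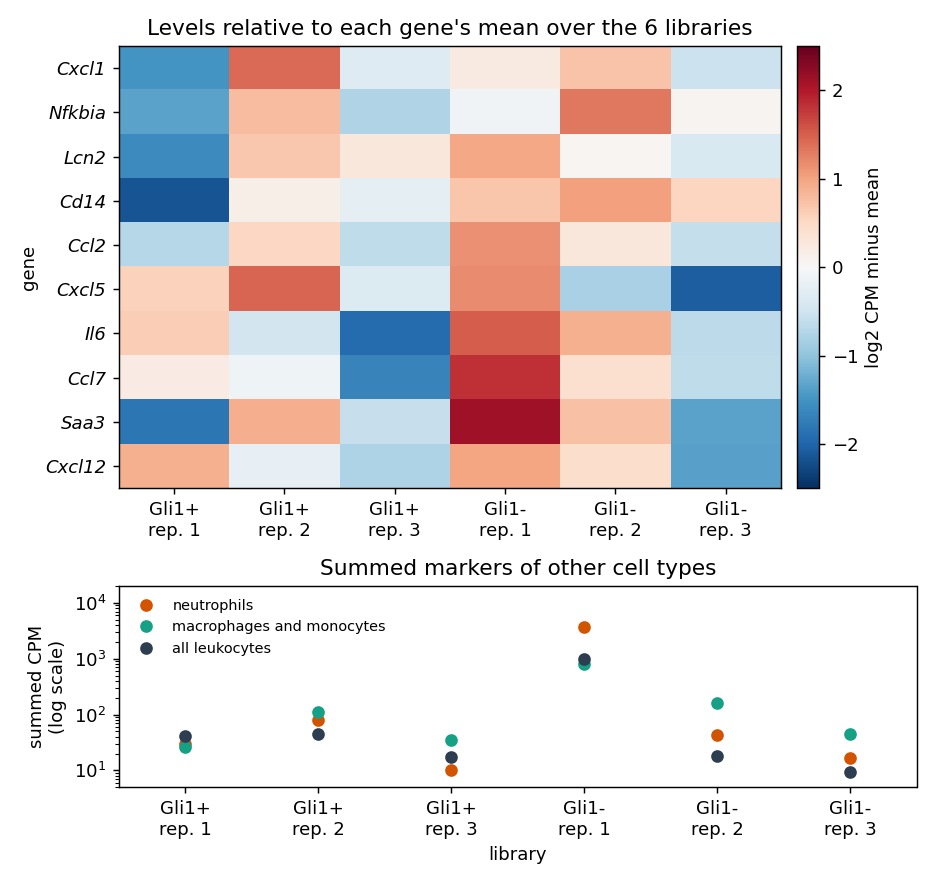
Top, log2 CPM of each gene minus its mean over the 6 libraries. Bottom, summed CPM (log scale) of neutrophil, macrophage and monocyte, and all-leukocyte markers in the same libraries, with 3660 CPM of neutrophil markers in Gli1- replicate 1 and at most 79.2 CPM in any other.

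Likeness of profile was described by Pearson's r of log2 CPM over the 6 libraries, among 10054 genes with a mean of at least 5 CPM. Genes with a count ran from 15000 to 23360 over these libraries, and summed dissociation-induced transcripts from 2250 to 36400 CPM. The part of these differences in the likeness was not tested. For Lcn2 the most similar genes were Pold2 (0.9897), Tmbim6 (0.9838) and Apex1 (0.9820). For Cd14 they were Isg15 (0.9965), Ifit3b (0.9952) and Dedd2 (0.9941), of which Isg15 and Ifit3b are known interferon-induced genes. For Il6 they were Cmas (0.9848), Palm (0.9791) and Ass1 (0.9749), and for Cxcl12 they were Gm7993 (0.9768), Tpd52 (0.9633) and Ggta1 (0.9596). Among the 10 genes themselves, r was 0.9705 between Saa3 and Ccl2 and 0.9547 between Il6 and Ccl7, but -0.0108 between Lcn2 and Il6 and -0.2704 between Cd14 and Cxcl5. With 6 points and 10054 genes searched, coefficients near 1 are to be found for any gene.

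Levels were compared between genes per kb of gene length. Cxcl1 was the highest of the 10 in every library and Nfkbia the next. Cxcl1 averaged 1420 and 1290 CPM per kb in the Gli1+ and the Gli1- population, and Nfkbia 378 and 628 CPM per kb. Lcn2 (158 and 189 CPM per kb) and Cd14 (95.6 and 223 CPM per kb) lay next, with Lcn2 above Cd14 in every library but Gli1- replicates 2 and 3. Ccl2 had 66.5 and 102 CPM per kb, Cxcl5 62.3 and 38.1 CPM per kb, and Ccl7 20.5 and 47.3 CPM per kb, and their order varied between libraries. Il6 had 8.55 and 18.2 CPM per kb. Saa3 (2.82 and 6.35 CPM per kb) and Cxcl12 (1.15 and 1.30 CPM per kb) closed the order in every library. Neighbours in this order overlapped within 1 SD of their means, with the exception of Nfkbia and Cd14 in Gli1- cells, whose intervals just failed to touch.

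The rest of the pathway was read from lists of its parts. Of 26 NF-κB pathway components, all 26 were tested, 0 had an unadjusted p under 0.05 in edgeR, and their median log2FC was -0.10, with 15 under 0. Of the DNA-binding subunits, Nfkb1 was at 312 ± 130 and 340 ± 152 CPM, Nfkb2 at 231 ± 76.8 and 282 ± 66.1 CPM, and Rela at 217 ± 84.6 and 348 ± 76.1 CPM in Gli1+ and Gli1- cells (n = 3 each). The adaptor Tab2 had 217 ± 77.3 and 241 ± 42.5 CPM. The receptors and adaptors had 20 of 26 genes tested and a median log2FC of -0.29, and 2 had an unadjusted p under 0.05, both with a log2FC under 0 (Tlr4 and Ccr1), against 2.04% of all genes. Ccr1 owed its log2FC of -4.91 to Gli1- replicate 1, with 55.7 CPM there and at most 0.928 CPM in any other library. The receptor Tlr2, which also works with CD14, had 195 ± 140 and 274 ± 125 CPM, Osmr had 245 ± 163 and 198 ± 57.8 CPM, and Lbp, which loads lipopolysaccharide onto CD14, had 191 ± 111 and 185 ± 114 CPM.

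The other cytokines and chemokines went both ways. Of 40 such genes 29 were tested, with a median log2FC of 0.34, and 6 had an unadjusted p under 0.05 in edgeR, 3 in each direction, against 3.47% of all genes. Those with a log2FC above 0 were Cxcl3, Ccl20 and Tnfsf11. Ccl20, the ligand of CCR6, had 25.1, 188 and 78.5 CPM in Gli1+ replicates 1, 2 and 3 and 1.81, 28.8 and 11.8 CPM in Gli1- replicates 1, 2 and 3 (log2FC 2.78, SE 1.03, unadjusted p = 0.0269 in edgeR). Tnfsf11, the osteoclast factor RANKL, had 17 ± 7.88 and 5.62 ± 0.897 CPM without overlap (log2FC 1.59, SE 0.51, unadjusted p = 0.0142 in edgeR). Those with a log2FC under 0 were Csf3, Il1b and Ccl6. Csf3, which encodes the granulocyte factor G-CSF, had 8.78, 11.4 and 4.94 CPM in Gli1+ replicates 1, 2 and 3 and 83.8, 18.5 and 13.1 CPM in Gli1- replicates 1, 2 and 3 (log2FC -2.20, SE 0.77, unadjusted p = 0.0208 in edgeR). Il1b and Ccl6 had 80.5 and 51.2 CPM in Gli1- replicate 1 and at most 1.47 CPM in any other library. The most abundant of the list were Lif (1150 ± 1050 and 1530 ± 1080 CPM), Cxcl2 (1440 ± 1110 and 1170 ± 95.3 CPM) and Csf1 (925 ± 538 and 606 ± 208 CPM), whose populations overlapped.

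Other inducible genes included matrix-degrading enzymes and adhesion molecules. Of 34 genes 29 were tested, with a median log2FC of -0.22, and 3 had an unadjusted p under 0.05 in edgeR, against 3.47% of all genes. Mmp13, the collagenase that cleaves type II collagen, had 5330, 2860 and 4860 CPM in Gli1+ replicates 1, 2 and 3 and 457, 592 and 607 CPM in Gli1- replicates 1, 2 and 3 (log2FC 2.98, SE 0.54, unadjusted p = 0.000527, adjusted p 0.9999 in edgeR). The stromelysin Mmp3 had 9810 ± 5760 and 3110 ± 1100 CPM without overlap (log2FC 1.66, SE 0.65, unadjusted p = 0.0339 in edgeR). The leukocyte adhesion gene Vcam1 had 43.9 ± 19.9 and 97.5 ± 24.2 CPM without overlap (log2FC -1.15, SE 0.45, unadjusted p = 0.0335 in edgeR). Icam1 had 1080 ± 927 and 1040 ± 406 CPM, and Gadd45b 807 ± 942 and 1400 ± 1220 CPM. The blocked DESeq2 fit called Mmp13, Mmp3, Ccl20, Cxcl3, Tnfsf11 and Tslp higher and Csf3 and Vcam1 lower in Gli1+ cells, 8 genes of these lists, against 115 (0.777%) higher and 313 (2.11%) lower, 428 in all (2.89%), among all genes. It also called 8 of the 14 dissociation-induced genes, all with a log2FC under 0. Tslp, an epithelial and stromal cytokine, was chosen for mention after its value was seen (log2FC 2.396, SE 0.52, adjusted p = 0.000606 in DESeq2).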

How the data were processed

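Poly-A RNA from sorted Gli1+ and Gli1- cells was sequenced in 6 libraries. The authors deposited 1 table of counts, whole reads per gene and library, without normalization or pooling. The submitters' processing notes name HISAT2 2.0.5, featureCounts 1.5.0-p3 and mm10, and strand use and annotation release are not given in the sources used here. The number of per-sample columns left unused was 0. Overlaps and shared 75-base stretches were taken from GENCODE M21.

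Genes passing edgeR's filterByExpr (minimum count 10) were scaled by TMM and tested with edgeR 4.0.16 (quasi-likelihood, R 4.3.3), with no block. log2 CPM for likeness used a prior count of 2. DESeq2 1.42.0 and limma 3.58.1 gave alternatives, and the fits without a block were tested on simulated data. Other alternatives changed the scaling and the filter, added the replicate number as a block or left out libraries. Adjusted p-values cover all genes tested. p-values measure the spread between these libraries, and counting error adds little, since no member had fewer than 42 counts in a library.

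The paper's text takes both populations from the same mice, and no source ties the replicate numbers to mice. Deviations from population means correlated at 0.223, 0.72 and 0.471 in same-numbered pairs, each over 0.1, and same-numbered libraries were treated as pairs. The cut does not single out this pairing. Gli1+ replicate 1 correlated at 0.274 with Gli1- replicate 3, and Gli1+ replicate 3 at 0.107 with Gli1- replicate 1. Il6 and Ccl7 were higher in Gli1+ replicate 1 (37.8 and 23.7 CPM) than in Gli1- replicate 3 (15.8 and 13.3 CPM), while Cd14 and Nfkbia were lower. The results by pair thus rest on the numbering.

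The 10 genes and 15 gene lists were chosen with earlier results of these data known. Named besides the 10 are Gli1, at most 4 pathway-list genes of highest mean CPM plus any with unadjusted p under 0.05, at most 2 marker genes where a list stands beside a result, and the 3 genes most like each of Lcn2, Cd14, Il6 and Cxcl12. Adgre1, Ly6g, Cxcr2 and Ccr2 were added after their values were seen.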

Additional observations from a re-analysis of the deposited data

How the results depend on the processing

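In edgeR none of the 10 genes and no gene at all was called under TMM, DESeq2 size factors, upper-quartile scaling or a CPM filter, with limma-voom, or with any 1 library left out (0 to 0 genes, 0 to 0 of the 10 genes and 0 to 0 list genes). At an unadjusted p under 0.05 there were 514 genes in edgeR, 472 in limma-voom and 717 in DESeq2. Without the filter edgeR called 267 of 28536 genes (20 higher, 247 lower) and 34 of 242 list genes. With the filter kept and no block, DESeq2 called 30 of 14801 genes and 2 of 182 list genes. With the replicate block, which pairs the libraries, edgeR called 0 genes and DESeq2 428 of 14801 (2.89%). Among these were 24 of the 182 list genes tested and 1 of the 10, Il6. The block changed no other call among the 10. Alternatives chosen after seeing the data left out pairs in that DESeq2 fit. It called 781 of 15331, 174 of 15195 and 71 of 14741 genes without pairs 1, 2 and 3. Of the list genes tested it called 35 of 181, 23 of 174 and 8 of 190, and of the 10 it called 2 (Il6 and Cxcl5), 0 and 0. Unblocked DESeq2 without Gli1- replicate 1 called 2 of 15733 genes and 1 of 184 list genes.

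The log2FC of Cd14, Il6, Ccl7, Nfkbia and Cxcl5 kept its sign in all 19 alternatives, with Cd14 between -1.85 and -0.82. The sign turned for Lcn2 without Gli1+ replicate 1 (0.14), without Gli1- replicate 1 (0.21, DESeq2 0.20) and without both (0.63, DESeq2 with block 0.63). It turned for Saa3 without pair 1 (0.31, DESeq2 with block 0.45), for Ccl2 without pair 1 (0.13, DESeq2 with block 0.083), and for Cxcl12 without Gli1+ replicate 3 (0.12), without Gli1- replicate 1 (0.32, DESeq2 0.32) and in blocked DESeq2 without pair 2 (0.22). For Cxcl1 it turned with limma-voom (-0.26), with the block in edgeR (-0.24) and DESeq2 (-0.25), without Gli1+ replicate 2 (-1.02), without Gli1- replicate 3 (-0.13) and in blocked DESeq2 without pairs 2 (-0.77) and 3 (-0.49). With any 1 library, or both of pair 1, left out, edgeR gave -0.71 to 0.63 for Lcn2, -2.16 to 0.31 for Saa3, -1.02 to 0.57 for Cxcl1, -0.80 to 0.32 for Cxcl12 and -1.14 to 0.13 for Ccl2. The cause was not tested.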
